A study of Drosophila melanogaster with 2 samples.

Results

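Intronic binding peaks far from any promoter were examined in a chromatin immunoprecipitation sequencing (ChIP-seq) experiment on tiptop (tio), using the 519 peaks, of 3793 in the authors' reproducible dm6 peak list, whose summit lay inside a protein-coding gene, in no annotated exon and more than 5 kb from the nearest annotated transcription start site (TSS). They made up 13.7% of the list (exact 95% binomial interval 12.6 to 14.8%, for counting error only). Chromatin came from whole Drosophila melanogaster embryos of both sexes, aged 4 to 24 h, of a strain named tio-GFP, which carries tio with GFP at the C terminus of the protein. Fragments of 200 to 800 bp were precipitated with an antibody to GFP, in 2 biological replicates that form 1 group. The peaks were chosen by position alone, so their signal was not used beyond what placed a peak on that list. No untagged or mutant group was analysed here, whole embryos mix all tissues, and the tagged transgene is 1 line, so a peak cannot be assigned to a tissue or stage.

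Tiptop is a DNA-binding protein with zinc fingers and arose as a duplicate of teashirt (tsh), a homeotic gene of the trunk segments that also acts in appendages, eye and Malpighian tubules. Sequence-specific factors of this kind bind promoters and enhancers, and in flies many enhancers of developmental regulators lie in long introns, often the first, kilobases away from the promoter that they act on. A peak in an intron does not show which gene it acts on, and the gene that holds it is called its host gene below.

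The DNA under 6 of the 7 strongest summits is shown first, because most members, though less A/T-rich than most of these, had less G+C at the summit than beside it. The sequences below are read from the dm6 genome and run from 50 bp before to 50 bp after the summit, in the introns of simj, which encodes a subunit of the Mi-2/NuRD chromatin complex, Gug, which encodes the Atrophin corepressor, CG32486, tara, which encodes a nuclear regulator of the cell cycle and of homeotic genes, and JIL-1, which encodes a kinase of histone H3. Capitals mark TTAAAA on either strand.
simj chr3L:10682884-10682984, plus strand: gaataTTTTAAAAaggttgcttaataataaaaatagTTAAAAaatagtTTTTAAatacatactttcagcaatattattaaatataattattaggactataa
simj chr3L:10683101-10683201, plus strand: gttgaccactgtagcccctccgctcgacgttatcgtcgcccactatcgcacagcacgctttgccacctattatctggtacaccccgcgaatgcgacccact
Gug chr3L:8458275-8458375, plus strand: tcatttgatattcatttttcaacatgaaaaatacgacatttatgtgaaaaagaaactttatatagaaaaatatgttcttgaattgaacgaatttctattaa
CG32486 chr3L:3060770-3060870, plus strand: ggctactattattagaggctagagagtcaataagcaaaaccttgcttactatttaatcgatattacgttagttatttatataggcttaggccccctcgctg
tara chr3R:16236903-16237003, plus strand: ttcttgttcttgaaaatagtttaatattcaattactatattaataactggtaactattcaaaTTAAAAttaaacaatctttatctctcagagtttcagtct
JIL-1 chr3L:11084717-11084817, plus strand: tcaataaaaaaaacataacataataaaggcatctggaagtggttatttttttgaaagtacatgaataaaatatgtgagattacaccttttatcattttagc
The first simj summit was 14.9% G+C over this stretch, Gug was 20.8%, tara was 21.8% and JIL-1 was 24.8%, while CG32486 was 37.6%, above the members' mean of 32.3% in such windows. Only the first simj summit and tara held TTAAAA. The other simj summit, 217 bp from the first and in an interval that overlaps it, was 58.4% G+C.

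A different pattern is shown in the next set, because it was more frequent in these intronic peaks than in their flanks. These are 30-base stretches, on the strand that reads CAGTGC, from 8 of the 42 members that carry this 6-mer followed by A and preceded by T at positions -7, -6, -5 and -3, counted back from its first base. Capitals mark CAGTGC. The 8 stretches come from the introns of lilli (a nuclear factor of transcription elongation), BicD (an adaptor for dynein transport), pnt (the ETS factor of EGFR signalling), CG10283, mgl (an LDL receptor relative), NetA (the axon guidance ligand Netrin-A), sog (a BMP antagonist) and cv-c.
lilli chr2L:2897041-2897070, minus strand: tttttttttttctttCAGTGCaagcacact
BicD chr2L:17466544-17466573, plus strand: cggataagttttttcCAGTGCatgtgcgga
pnt chr3R:23326561-23326590, plus strand: ttcatgcttttctagCAGTGCagctactgt
CG10283 chr2L:18477681-18477710, plus strand: atattaattttttctCAGTGCacatatggt
mgl chrX:9487053-9487082, plus strand: gctccccatttctcgCAGTGCatctttgag
NetA chrX:14627671-14627700, plus strand: gccctttttttctccCAGTGCactgcccgt
sog chrX:15619412-15619441, minus strand: aattcttatttctcgCAGTGCatcgtcttc
cv-c chr3R:14476533-14476562, plus strand: tccactattttttcgCAGTGCactaccgaa
The centre of the pattern lay 71 bp from the summit in lilli, 79 bp in BicD, 83 bp in pnt, 32 bp in CG10283, 56 bp in mgl, 82 bp in NetA, 37 bp in sog and 43 bp in cv-c. In each of these 8 the pattern was thus beside the summit and not on it. The signals of these peaks ran from 154 in cv-c to 284 in lilli.

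The signal is the authors' own value for each peak, with a scaling that the sources used here do not state, and the pooled scale of the IDR list (IDR, irreproducible discovery rate) is not the scale of the replicate lists. Intronic peaks over 5 kb from a TSS were weaker than the rest. Their median signal was 124 (quartiles 99.1 and 168, range 87.6 to 811), against 151 in the other 3274 IDR peaks (quartiles 111 and 237, range 87.5 to 2078). In replicate 1 the medians were 65.6 for these peaks and 81.9 for the others, and in replicate 2 they were 60.2 and 74.2. The members also had the lower median on each of the 5 arms that hold any, with 128 against 152 on 2L, 127 against 152 on 2R, 125 against 146 on 3L, 113 against 152 on 3R and 117 against 155 on X. Peaks of 1 pair of libraries are not replicates, so these differences carry no test.

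Distance from a TSS, more than location in an intron, ran with the signal. Intronic peaks at 1 to 5 kb had a median of 139 and those within 1 kb had 168. Intergenic peaks over 5 kb had a median of 121, close to the 124 of the intronic ones at that distance. Among the 948 IDR peaks with the highest signal, 59 (6.22%) were members, and the share was 13.7%, 14.2% and 20.5% among the next 948, the next 948 and the last 949. No member was among the 50 strongest IDR peaks, 4 were among the strongest 100 and 21 among the strongest 500.

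**Figure D1:**
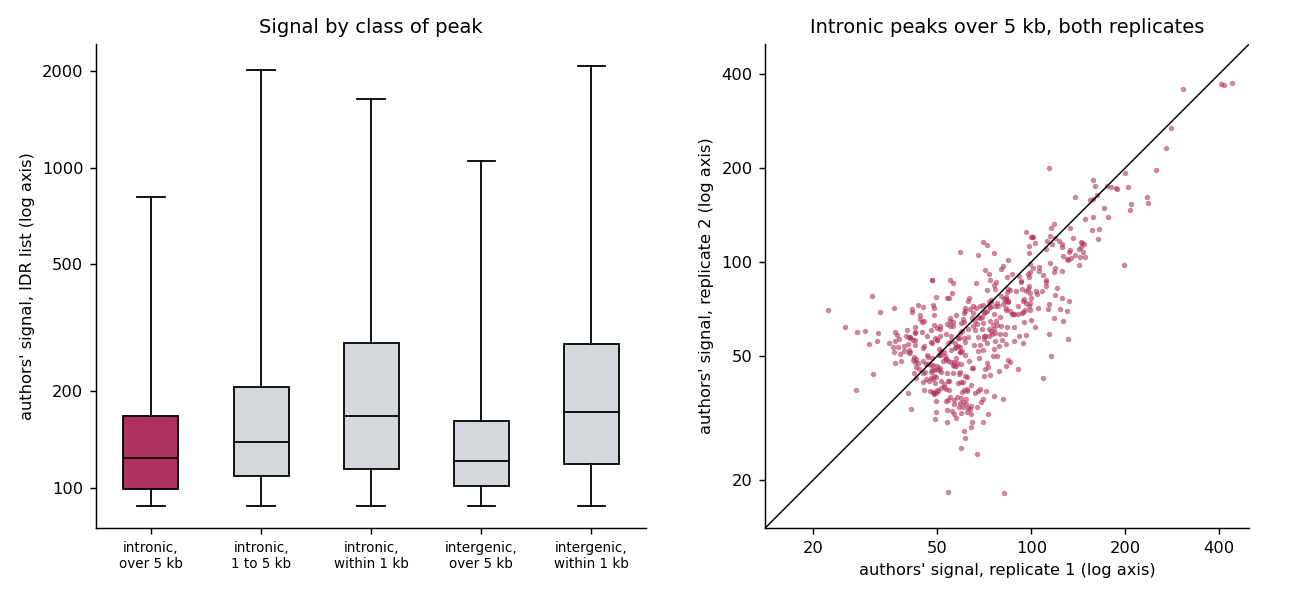
Left, the authors' signal on the IDR list (log axis) for 5 classes of peak, with boxes from the lower to the upper quartile, the median as a line and whiskers to the lowest and highest peak; the members, at the left, have a median of 124 against 168 for intronic peaks within 1 kb of a TSS. Right, each point is 1 of 480 members matched in both replicates, replicate 1 across and replicate 2 up (log axes), with the line of equal values; most points lie near the line and the scatter is widest among the weak peaks.

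The members come from the IDR list, which was made from both replicate lists, so a match in both is largely set by that choice, and the replicate lists include background regions. Within 100 bp of the summit a region was listed in both replicate lists for 480 members (92.5%), against 3024 of the other peaks (92.4%). Of the 39 without such a match, 19 lacked it in replicate 1 and 20 in replicate 2, and none lacked it in both. Spearman's rank correlation between the replicates was 0.64 over the 480 members and 0.81 over the 3024 others, as a description across peaks that share 2 libraries and whose signal range differs. The log2 ratio of replicate 1 to replicate 2 had a median of 0.15 with an SD of 0.48 over members, and 0.16 with an SD of 0.46 over the others. The ratio exceeded a factor of 2 for 22 members (4.58%), of which 16 were higher in replicate 1. The widest splits were at cic, a repressor downstream of EGFR, with 81.9 in replicate 1 and 18.1 in replicate 2, and at plh, with 22.2 and 69.9. Ranked within each replicate list, 57.8% of members and 69.7% of the other peaks were among the 3793 highest signals of both.

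The 519 summits lay 5002 to 49817 bp from the nearest TSS, with a median of 8720 bp and quartiles of 6636 and 13274 bp. Of these, 306 were within 10 kb and 57 were over 20 kb away. Just inside the 5 kb limit were summits in E2f1 at 5002 bp with a signal of 94.6, in Nuak at 5005 bp with 107 and in cno at 5005 bp with 224. Just outside it were intronic summits in shep at 4993 bp with 135, in Pdk at 4986 bp with 203 and in stumps at 4967 bp with 138. The nearest TSS belonged to the host gene for 327 members (63.0%). For the other 192 it belonged to another gene, which was protein-coding in 105 cases and a noncoding RNA gene of the annotation's ncRNA class in 76.

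Per length of intron, summits thinned out with distance. There were 28.2 summits per Mb of intron at 5 to 10 kb, 18.7 at 10 to 20 kb and 11.96 at 20 to 50 kb. Nearer to a TSS the density was 90.9 within 1 kb, 52.1 at 1 to 2 kb and 35.3 at 2 to 5 kb. In 3.63 Mb of intron over 50 kb from any TSS there was no IDR summit, although the authors' pooled list, in which background regions are included, placed 290 regions there. These pooled regions were also sparse, at 79.8 per Mb. Pooled regions outside the IDR list numbered 198 per Mb at 20 to 50 kb and 277 per Mb at 2 to 5 kb. The eligible sequence, that is intron over 5 kb from a TSS, covers 20.6% of the 6 arms, so members occurred at 18.8 per Mb, against 30.8 IDR peaks per Mb elsewhere.

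**Figure D2:**
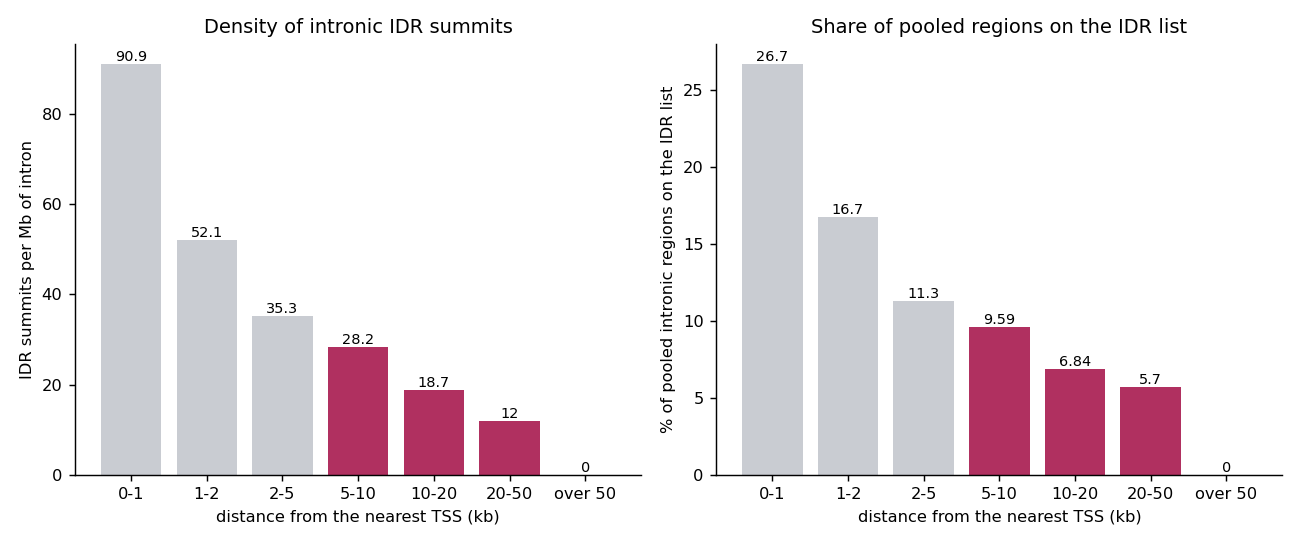
Left, IDR summits per Mb of intron, and right, the percent of the authors' pooled intronic regions that are on the IDR list, by distance from the nearest TSS in kb; the bins over 5 kb, where the members lie, are in red. Both fall from the nearest to the farthest bin, to 11.96 per Mb and 5.70% at 20 to 50 kb and to 0 beyond 50 kb.

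The pooled list gives the background for this decline. Of its 29999 regions on the 6 arms, 12.6% are on the IDR list, while of its 6762 regions that are intronic and over 5 kb from a TSS, 519 are, or 7.68%. That class made up 22.5% of the pooled list and 13.7% of the IDR list. By distance the share was 9.59% at 5 to 10 kb, 6.84% at 10 to 20 kb and 5.70% at 20 to 50 kb, against 26.7% within 1 kb. The weakest member had a signal of 87.6 and the strongest of the 6243 other regions of the class had 87.5, so being on the IDR list is here the same as passing a level of signal. The median signal of those 6243 regions was 38.6.

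First introns held more than their share of the members. Of the 519 summits, 271 (52.2%) lay in the first intron of an annotated transcript, which makes up 30.5% of the eligible sequence and holds 37.3% of the lower-signal regions of the class. That is 32.2 members per Mb in first introns and 12.9 per Mb in other introns. The difference was present at each distance. First introns held 57.8% of the members at 5 to 10 kb, where they make up 42.0% of the eligible sequence, 46.8% against 31.8% at 10 to 20 kb, and 36.8% against 21.2% at 20 to 50 kb. The introns that hold members had a median length of 23921 bp.

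Members were unevenly spread over the arms. They numbered 104 on 2L (25.4 per Mb of eligible sequence), 62 on 2R (12.7), 100 on 3L (18.8), 136 on 3R (16.7) and 117 on X (24.0). These densities include the 12 longest genes without a member, which lie on 3R, 3L, 2R and 2L. Of the 8158349 eligible bp on 3R, Myo81F alone has 1904749 bp and Pzl 689938 bp. Densities by arm without such genes were not computed. Chromosome 4, with 255148 bp of eligible sequence and 15 IDR peaks in all, held none.

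The 20 strongest members had signals from 333 to 811. The strongest, in simj, had a signal of 811, with 440 in replicate 1 and 374 in replicate 2. The simj summit beside it had 473, with 114 in replicate 1 and 199 in replicate 2, and another simj summit had 398 (234 and 162). Next came Gug with 777 (406 in replicate 1 and 371 in replicate 2) and CG32486 with 776 (414 and 368). A summit that lies at once in Hr3, the ecdysone-induced nuclear receptor, CG12912 and CG46321 had 668 (307 and 359). The peak in tara had 543 (281 and 269), and that in JIL-1 had 508 (270 and 232).

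After these came Hr4, a nuclear receptor of the ecdysone cascade, with a signal of 454 (250 in replicate 1 and 198 in replicate 2), and Eip75B, the ecdysone-induced receptor E75, with 395 (200 and 193). The zinc finger gene mamo had 394 (236 and 155) at 42288 bp from a TSS, the most distant of the 20 strongest, and the bHLH gene crp had 385 (205 and 174). A summit shared by the overlapping genes Mi-2, the NuRD helicase, and Su(Tpl) had 359 (208 and 147), and the Wingless and planar polarity receptor gene fz also had 359 (188 and 172). The rest of the 20 strongest were 3 peaks of sbb (356, 354 and 343), Lrch (345), Dad (342) and CG6959 (333). Of these 20 peaks 17 were in a first intron, and 15 had the higher value in replicate 1.

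A total of 321 genes hosted the members, which is 18.2% of the 1760 protein-coding genes with any eligible sequence. Of these hosts, 205 held 1 member, 65 held 2, 51 held at least 3 and 13 held at least 5. The 13 together held 77 members (14.8%). The median eligible length was 18814 bp in hosts and 4071 bp in the other eligible genes, so hosts had more eligible sequence. The share of hosts was 7.82% among genes with 1 to 5 kb of eligible sequence, 20.1% at 5 to 10 kb, 28.2% at 10 to 25 kb, 38.0% at 25 to 50 kb, 52.9% at 50 to 100 kb and 12 of 30 genes above that.

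Among these 13 hosts tara had the most members per length, with 6 in 16125 bp of eligible sequence (37.2 per 100 kb). Its signals were 543, 281, 265, 194, 183 and 113. B4 had 5 in 14833 bp (33.7 per 100 kb), all within 2687 bp, with signals from 93.1 to 151. The translation factor gene eIF5B had 6, from 90.1 to 215, and sbb, which encodes the corepressor Brakeless, had 8, from 108 to 356 (22.5 per 100 kb). All 8 of the sbb summits were in a first intron, as were all 6 in tara and all 6 in Snoo, which encodes a SnoN-type regulator of TGF-beta signalling (91.6 to 211).

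Over all eligible genes there were 3.15 members per 100 kb in genes with 1 to 5 kb of eligible sequence, 3.36 at 5 to 10 kb, 2.76 at 10 to 25 kb, 2.06 at 25 to 50 kb, 1.72 at 50 to 100 kb and 0.560 above that. Among the 13 hosts with 5 or more members, which were picked for that number so that density falls with length by construction, the myoblast fusion receptor gene kirre had 8 members in 226343 bp (3.53 per 100 kb), with signals from 92.2 to 152, and the adhesion gene ed had 7, from 94.6 to 287 (10.9 per 100 kb). In cv-c there were 6, from 98.4 to 154, and in fz there were 5, from 92.8 to 359. The homeobox gene hth, whose product is a cofactor of Hox proteins and a partner of Tsh in the eye, had 5 (4.97 per 100 kb), from 104 to 193. Its summit at 49817 bp from a TSS, with a signal of 144, is the most distant of all members.

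**Figure D3:**
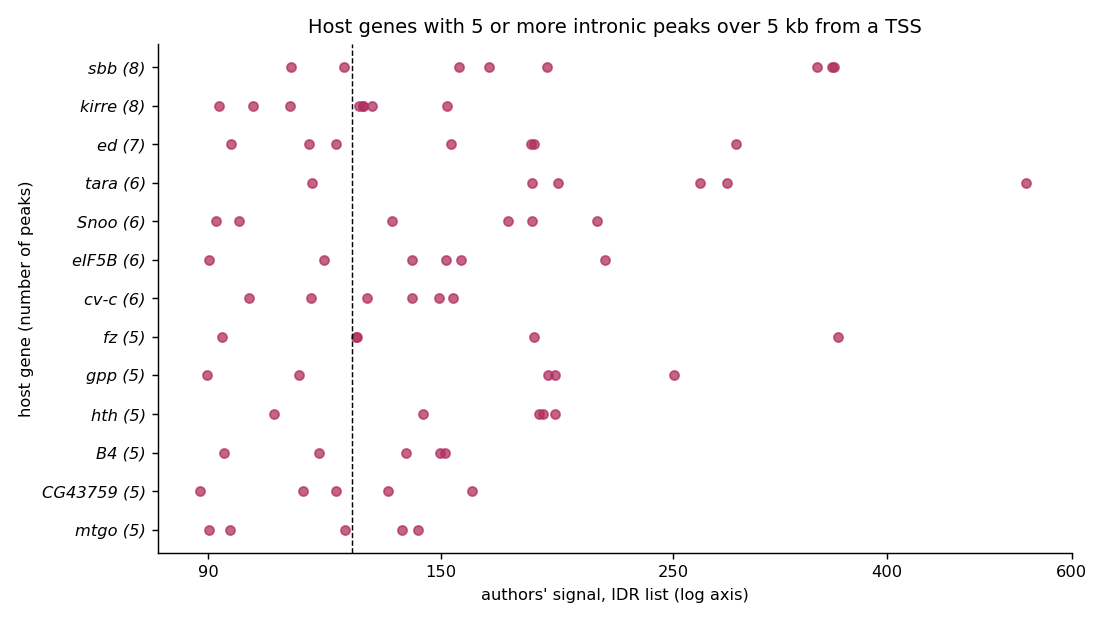
Each point is the authors' signal on the IDR list (log axis) of 1 member in one of the 13 host genes with 5 or more members, with the number of members after the gene's name; the dashed line is the median of all members, 124. The sbb peaks reach 356 and the tara peaks 543, while the 8 kirre peaks stay between 92.2 and 152.

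Many long genes held no member. Of 115 genes with at least 50 kb of eligible sequence, 57 hosted members and 58 did not. Named after their values were seen, the longest without any were Myo81F, with 1904749 bp eligible and 64 lower-signal regions, and Pzl, with 689938 bp and 22. The adhesion gene DIP-lambda (71 lower-signal regions), the RNA-binding protein gene bru3 (43) and the synaptic vesicle fusion gene Snap25 (23) also held none.

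Host genes had a peak at their own promoter more often. An IDR summit within 1 kb of their own TSS was found for 115 of the 321 hosts (35.8%), for 312 of the 1439 other eligible genes (21.7%) and for 12.6% of all 13945 protein-coding genes. The gap was present at each length with more than 1 host. It was 44.1% against 25.7% at 1 to 5 kb of eligible sequence, 35.2% against 20.9% at 5 to 10 kb, 39.4% against 18.9% at 10 to 25 kb, 33.8% against 19.8% at 25 to 50 kb and 31.1% against 8 of 40 genes at 50 to 100 kb. Above that it was 2 of 12 hosts against 1 of 18 other genes.

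Members sat near each other in part of the genes. With gaps of at most 2 kb, 112 of them (21.6%) formed 48 runs, of which 11 had at least 3 members. In 13 of the runs the members were a pair of summits 199 to 280 bp apart, so some runs can be neighbouring summits of 1 region. The interval of 38 members overlapped that of another IDR peak, whether a member or not. An IDR neighbour of any class lay within 2 kb of 23.1% of members, against 37.9% of the other peaks. The longest was the run of 5 in B4. The run of 4 in sbb spans 5132 bp and holds its 3 strongest peaks, and the run of 4 in tara spans 1990 bp. The nearest other IDR summit of any class was at a median of 6265 bp from a member, against 3602 bp for the other peaks.

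Host genes were also grouped by pathway and tissue. The lists below were chosen with earlier results of these data known, so they are described by counts beside all eligible genes (18.2% hosting, 18.8 members per Mb, 7.68% of pooled regions on the IDR list) and carry no test. Of 27 lists, 22 had more than 18.8 members per Mb of their eligible sequence, and 21 had more than 7.68% of their pooled regions on the IDR list. The density over all eligible genes includes 4895092 bp in the 12 longest genes that hold no member. Without these, a choice made after their values were seen, it was 22.9 per Mb, which 21 lists passed and axon guidance did not. Neither background is matched to a list by eligible length per gene. Of genes with under 1 kb of eligible sequence 0.26% hosted, and of those with 10 to 25 kb 28.2%. Density was 2.76 members per 100 kb at 10 to 25 kb and 0.560 above 100 kb. How the lists compare with genes of like length was not tested.

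In the EGFR pathway, 6 of 9 eligible genes hosted 10 members (71.4 per Mb, 16.1% of the pooled regions). The strongest was in S, which encodes Star, a trafficking factor for EGFR ligands, with a signal of 321 (158 in replicate 1 and 159 in replicate 2), beside another S peak of 136. The kinase gene Raf held 3, of 263, 262 and 212. The neuregulin-like ligand gene vn had 162 and 118, pnt had 246, the inhibitor gene aos, in a summit that also lies in CG33158, had 100.7 and the MAP kinase gene rl had 97.5.

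In the BMP pathway, 5 of 8 eligible genes hosted 10 members (94.3 per Mb, 19.2%). The ligand gene dpp had 1 peak of 189, and the type I receptor gene tkv had 1 of 92.5. The extracellular regulators sog and cv-2 had 2 (199.9 and 100.9) and 4 (306, 130, 129 and 95.1). Dad, the inhibitory Smad, had 342, with 174 in replicate 1 and 175 in replicate 2, and 197.

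In the Wingless pathway, 6 of 9 eligible genes hosted 12 members (58.8 per Mb, 12.8%). The ligand genes had weak peaks, of 94.3 in wg, 119 in Wnt6 and 102 and 100.7 in Wnt4. The receptor gene fz had the strongest, of 359, and fz2 had 107 and 90.6. The antagonist gene nkd had 159.

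The ecdysone response had 6 of 12 eligible genes hosting 14 members (47.0 per Mb, 15.6%), and these included the strongest member of any list. Beside Hr3 at 668, the nuclear receptor gene Hr4 held 454, 319, 139 and 96.7, and Eip75B held 395, 241 and 113. The receptor gene ftz-f1 had 189, 169 and 94.8. The ETS gene Eip74EF had 157 and 144, and Eip93F, at the low end, had 97.9.

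In the other signalling lists fewer genes hosted, but all except the insulin and TOR list had more than 18.8 members per Mb. Hosts were 1 of 5 eligible genes for Hedgehog (74.4 per Mb, 15.4%) and 3 of 6 for Hippo (44.3 per Mb, 12.5%). They were 2 of 8 for Notch (35.5 per Mb, 10.4%) and 2 of 5 for FGF (37.4 per Mb, 8.70%). For JNK they were 1 of 3 (92.1 per Mb, 28.6%), resting on 2 members. The Hedgehog list had 4 members, all in rdx, which encodes a ubiquitin ligase adaptor for Ci, with signals of 251, 197, 112 and 99.4, and had 7 with replicate 1 alone. The Hippo list had 8, of which 5 were in hth, 2 in kibra (99.1 and 91.0) and 1 in the kinase gene wts (136). The Notch list had 4 in the coactivator gene mam (238, 150, 132 and 109) and 1 in the protease gene kuz (122). The JNK list had 2, both in the kinase gene msn, of 125 and 90.02, and 1 with replicate 1 alone. The FGF list had 1 each in the ligand genes ths (105) and bnl (97.6), and 1 in all with replicate 2 alone. In the insulin and TOR list none of 3 eligible genes hosted, but these have only 37.4 kb of eligible sequence, in which few members would be due.

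Transcription factor genes of segmentation, appendages and tissues also hosted members, a few genes in each list. Of 8 eligible Hox genes 2 hosted (23.7 per Mb), with 199, 147 and 112 in Antp and 125 in Ubx. Of 21 eligible appendage genes 6 hosted 11 members (27.5 per Mb), of which hth had 5 and the homeobox gene Lim1 had 2 (169 and 128), while the T-box gene bi, the Iroquois gene ara, bab1 and dac had 1 each, from 97.4 to 145. The retinal determination list had 6 members (2 of 6 eligible genes, 45.5 per Mb), those of hth and dac. Of 7 eligible pair-rule and segment polarity genes 2 hosted (40.5 per Mb). The homeobox gene inv had 116 beside wg, and with replicate 1 alone the list had 1 member. The tracheal list (2 of 4 eligible genes, 42.5 per Mb) had knrl with 116 and the FGF gene bnl. With replicate 1 alone the tracheal list had none. The muscle identity list had 3 of 10 eligible genes hosting (30.0 per Mb). Signals there were 221 in the RNA-binding protein gene how, 132 and 98.9 in Mef2 and 107 in zfh1. In the GATA and hemocyte list 2 of 7 eligible genes hosted (59.6 per Mb). Signals were 178, 169 and 127 in ush, which encodes a Friend of GATA protein, and 94.5 in grn. With replicate 1 alone that list had 2 members. The homeobox gene ct, expressed in Malpighian tubules, had 214, 160 and 115, the 3 members of the tubule and hindgut list. It was the host among 10 eligible genes of that list (41.4 per Mb).

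Axon guidance genes hosted in 13 of 28 cases, with 23 members (21.7 per Mb) and 8.24% of the pooled regions on the IDR list, near the 7.68% of all eligible genes. In the 1896 strongest IDR peaks they had 4 members, where all members fell from 519 to 189 and those of the Wingless list from 12 to 3. The axon guidance genes were led by the adhesion gene Fas3 with 222 and NetA with 211. Synaptic and transmitter genes hosted in 2 of 33 cases, with 3 members in 0.672 Mb (4.46 per Mb, 2.33% of the pooled regions), the strongest being nAChRalpha1 with 100. With replicate 2 alone the synaptic genes had 1 member. In the proneural and neuroblast list 1 of 9 eligible genes hosted, fne with a member of 90.7 (12.9 per Mb). With replicate 1 alone no gene did. These 9 genes have only 77.7 kb of eligible sequence, in which few members would be due. None of the 10 eligible genes on the Polycomb and trithorax group list hosted, with 17 lower-signal regions in them. With replicate 2 alone these listed genes had 1 member. They have only 72.8 kb of eligible sequence. At 18.8 members per Mb so short a sequence would hold few, so the absence is not read as a deficit. The list does not hold every such regulator, as tara, a regulator of homeotic genes and a host described above, is not on it. In the muscle structure list 8 of 9 members were those of kirre, which also made up the 8 of the Irre cell recognition list (5 with replicate 2 alone), and in the list of corepressors and zinc finger genes 8 of 9 were those of sbb, the other being in klu (118). The 23 eligible adhesion and polarity genes had 15 members in 8 hosts (24.4 per Mb), led by fz. In the epidermis list 2 of 12 eligible genes hosted, Ubx and tyn (98.6), at 13.1 per Mb. That is 16.7% of its eligible genes, near the 18.2% of all eligible genes. With replicate 1 alone the epidermis list had 1 member.

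**Figure D4:**
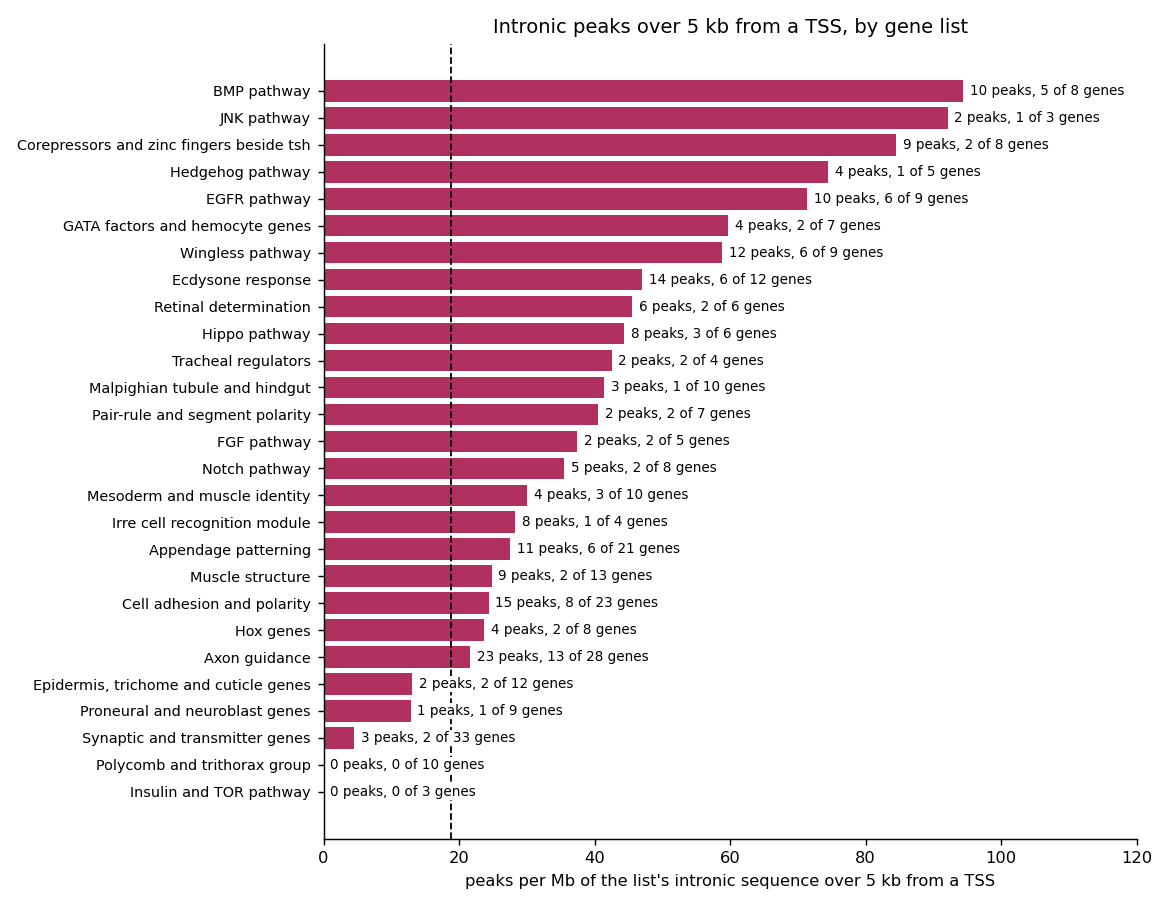
Members per Mb of each list's intronic sequence over 5 kb from a TSS, with the number of members and of hosting genes of those eligible; the dashed line is the value over all eligible genes, 18.8 per Mb. The BMP list is at 94.3 and the EGFR list at 71.4, and synaptic genes are at 4.46; lists share genes, such as hth and fz, and several bars rest on 1 gene.

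At the level of sequence the summits were troughs of G+C content. Within 100 bp of the summit the members had 34.2% ± 5.43 G+C (SD over 519 peaks), against 42.0% in windows of the same length centred 500 bp to either side, and 434 members (83.6%) were below their own flanks. The other IDR peaks had 33.8% at the summit and 43.1% in their flanks. The lower-signal regions of the same class had 37.9% at the summit and 40.8% in the flanks, a shallower trough. The 6-mer TTAAAA, on either strand, was within 100 bp of the summit in 275 members (53.0%), against 25.6% of flank windows, 38.8% of lower-signal regions and 54.2% of the other IDR peaks.

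Of the words searched and found in the flanks, CAGTGC had the largest ratio of its share at the members' summits to that in the flanks, 3.09. It had led an earlier search of this peak list, so its presence is no independent result, and its values are a description. On either strand it was within 100 bp of the summit in 122 members (23.5%), against 7.61% of flank windows, 10.7% of lower-signal regions of the class, 8.16% of equally long tiles of the eligible sequence and 15.2% of the other IDR peaks. Among intronic peaks the share was 13.1% within 1 kb of a TSS, 14.8% at 1 to 2 kb, 17.4% at 2 to 5 kb, 20.6% at 5 to 10 kb, 26.9% at 10 to 20 kb and 29.8% over 20 kb. Intergenic peaks had 11.6% within 1 kb and no such gradient beyond it, with 20.6% at 1 to 2 kb, 22.6% at 2 to 5 kb, 22.6% at 5 to 10 kb, 23.2% at 10 to 20 kb and 3 of 15 peaks over 20 kb.

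Around CAGTGC the matches shared further bases, in the members and in the other peaks. Over the 140 matches, T stood at position -7 in 68.6%, at -6 in 65.7%, at -5 in 73.6% and at -3 in 60.7%, and A followed it in 62.1%. Over the 84 matches in the flanks the same positions had T in 20.2%, 38.1%, 29.8% and 39.3%, and A in 39.3%. Over the 550 matches in the other IDR peaks they had T in 61.1%, 59.8%, 57.1% and 57.6%, and A in 62.2%, so this context is not particular to the members. The longer form with all of these bases, shown in the stretches above and chosen from this alignment, was in 42 members (8.09%), 0.289% of flank windows, 1.76% of lower-signal regions and 0.352% of tiles of the eligible sequence. Because CAGTGC itself came from a search of the whole peak list, none of its peaks are independent of that choice. The longer form was in 11.1% of intergenic peaks over 5 kb and 4.22% of all other IDR peaks. Ranked by the difference from the other IDR peaks, the 6-mers at the members' summits were led by TTTTCT or its reverse complement, in 46.1% of members and 36.9% of the others, and TTTCTC, in 29.7% and 21.0%. Such pyrimidine runs also stand before CAGTGC in the stretches above, but those were picked for T at positions -7, -6, -5 and -3. Their presence there is thus largely set by the choice. The other IDR peaks had more of TTAATT, in 35.5% of members against 41.8% of the others.

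The positions of the 2 words differed. TTAAAA was centred on the summit, with 35.1% of members holding it within 50 bp. CAGTGC lay within 50 bp in 51 members and only at 51 to 100 bp in 71, against 214 and 285 of the other IDR peaks. In the 50 bp bins along the plus strand its share in members was 5.59% at -100 bp, 5.39% at -50 bp, 5.01% at the summit, 7.13% at 50 bp and 7.51% at 100 bp. The signal hardly ran with CAGTGC, with a median of 128 in members that had it and 122 in those that did not (68.2 and 64.2 in replicate 1, 60.9 and 60.1 in replicate 2).

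**Figure D5:**
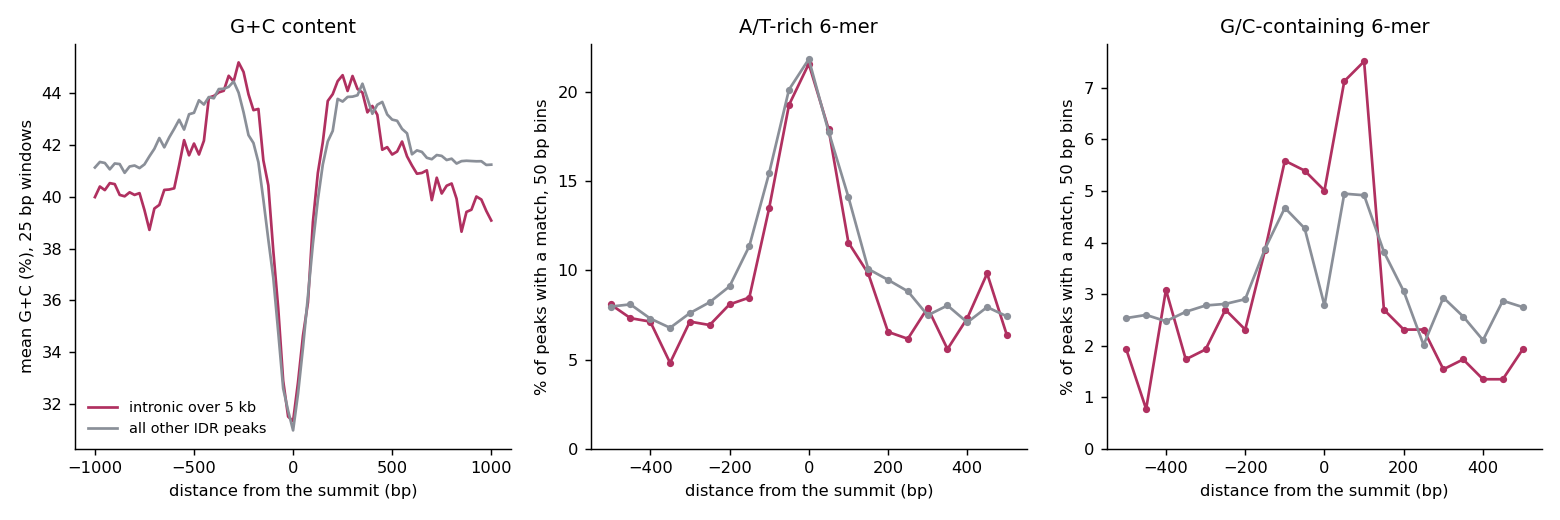
Mean G+C content in 25 bp windows (left) and the percent of peaks with a match in 50 bp bins to TTAAAA (middle) and CAGTGC (right), by distance from the summit in bp, for the members (red) and all other IDR peaks (grey). G+C content and TTAAAA have the same shape in both groups, while CAGTGC is more frequent in the members in the bins from -100 to 100 bp and not in the bins at 150 and 200 bp to either side.

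Of the 21 words searched, each on both strands, 10 were more frequent at the members' summits than in their flanks, 10 were less frequent and 1 was equal. The homeodomain core TAATTA was in 15.2% of members and 13.8% of flank windows, against 19.8% and 11.5% for the other IDR peaks. The GATA word AGATAA was in 14.6% of members and 10.8% of flanks, against 15.9% and 10.9% for the other IDR peaks. The DREF and BEAF-32 word TATCGATA was in 2 members (0.385%), against 1.65% of the other peaks. The GAGA factor word GAGAGAG was in 1.73% of members and 6.36% of flanks, and the CA repeat CACACACA in 2.70% and 7.80%. The Hth word TGACAG was in 5.39% and 8.09%, and the Scalloped word CATTCCA in 1.73% and 3.28%. A match is a description of the letters and not a bound site.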

How the data were processed

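The authors deposited peak lists, not reads, so the depth of each library is unknown. Per the notes deposited with the samples, each replicate list was made from that replicate and 1 control, the pooled list from both replicates and the control, and the IDR list from the replicate and pooled lists. The name of the aligner or caller and the IDR level is not given in the sources used here. Every deposited region carries a signal with an unstated scale, which was used to describe, rank and match peaks, and a -log10 q value from the authors, which was not used for any result. Lists on dm3 and the control library were not analysed here.

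Summits (start plus deposited offset, 1-based) were classed with the Ensembl release 115 annotation (BDGP6.54) without transposable elements, on 6 arms. Regions were matched between lists by summits within 100 bp. G+C content and words were read within 100 bp of the summit from the dm6 sequence, with flank windows centred 500 bp away. Of 441 gene list symbols 12 were updated and 6 had no match. The regions, gene lists and words were chosen with earlier results of these data known. Named were the 20 strongest members and their hosts, the 8 hosts with the most members, the host with the strongest member of each list and the 3 summits on each side of 5 kb, and further hosts were named after their values were seen. With 1 group and no replicate test, no p-values are given, and the classing was tested on simulated data. Python 3.11.15, pandas 2.3.3 and SciPy 1.17.1 were used.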

Additional observations from a re-analysis of the deposited data

How the results depend on the processing

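The members' share of the list was 13.7%, and it was 9.97% in the 1896 strongest IDR peaks, 20.3% at a limit of 3 kb, 5.62% at 10 kb, 15.4% with protein-coding TSSs only and 11.9% to 13.0% with either replicate alone. The 321 host genes became 141 in those 1896 peaks and 133 at 10 kb, which follows from fewer peaks, and 282 to 298 with either replicate alone. The members' median signal was 0.820 times that of the other peaks, 0.840 times at a limit of 3 kb and 0.819 to 0.836 times with either replicate alone, so it stayed below the others in all 7 alternatives. G+C content was 34.2% in the main setting, 33.8% in the stronger peaks, 34.3% at 3 kb, 34.2% at 10 kb, 34.0% with protein-coding TSSs, 32.3% in windows reaching 50 bp and 38.0% in windows reaching 200 bp, and 34.1% to 34.2% with either replicate alone. Matching within 50 bp instead of 100 bp left 68.8% of members matched, with the rank correlation at 0.68, and within 200 bp 99.4%. CAGTGC was at 9.83% and TTAAAA at 35.1% within 50 bp, as the shorter window holds fewer positions, and TTAAAA was at 58.2% in the stronger peaks. First introns held 58.7% of the stronger members and 51.2% to 52.4% with either replicate alone. Of the 519 members, 386 were found with replicate 2 alone and 400 with replicate 1 alone. In the 1896 strongest peaks all members fell from 519 to 189, so a move in most gene lists there follows from fewer peaks. By gene list, the number of members moved by over 1.5 times in 23 of 27 lists in the 1896 strongest peaks. With either replicate alone it did so in 11 of 54 counts. Those 11 are given beside the lists. No paired analysis was possible because there is 1 group and no test. Depth and the scale of the signal are unknown, and the number of regions per pooled list limits every share taken from it.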
